A study of Mus musculus with 7 samples.

Results

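The long noncoding RNAs described here are *Neat1*, *Malat1*, *Dleu2*, *Gas5*, *Snhg1*, *Snhg12*, *Kcnq1ot1* and *Meg3*, 8 of the 25033 gene symbols counted in RNA-seq libraries of lineage-depleted (lin-) bone marrow cells. They were selected by name with their levels in these same libraries already known, so the difference between the genotypes in these 8 RNAs is given as a description and carries no p-value. The study compared 3 HRP-2 +/+ mice (wild type, WT) with 4 HRP-2 -/- mice (knockout, KO) to learn what the loss of HRP-2 changes in blood progenitors. HRP-2, a chromatin reader encoded by *Hdgfl2*, was absent systemically in the KO mice, which carried the allele Hdgfrp2 tm1b (KOMP)Wtsi on C57BL/6N. No mouse received a treatment, and per the study's supplement the cells came from the femur and tibia of mice of 6 to 8 weeks. The KO mice were survivors of a line in which some pups died after birth, and each library is 1 mouse.

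A long noncoding RNA is a transcript that is not translated into a protein and acts, where it acts, as RNA or through the transcription of its locus. *Neat1* builds paraspeckles, nuclear bodies that hold RNA-binding proteins, and its neighbour *Malat1* sits in nuclear speckles, where splicing factors gather. *Dleu2* carries the miR-15a and miR-16-1 hairpins in its introns, and in blood cells these miRNAs restrain cell division. *Gas5*, *Snhg1* and *Snhg12* are hosts of small nucleolar RNAs (snoRNAs), which guide the modification of ribosomal RNA and are cut from the introns, while the spliced host RNA is removed by nonsense-mediated decay. *Kcnq1ot1* and *Meg3* are imprinted, that is, transcribed from only the paternal or only the maternal chromosome, and *Meg3* has been linked to the maintenance of blood stem cells.

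The libraries were primed on poly(A), so a read counts a transcript with a tail or an internal run of A. For that reason the annotated 3′ ends are shown first, read from the GENCODE transcripts of GRCm38 as the last 40 bases 5′ to 3′, with each polyadenylation hexamer AATAAA or ATTAAA in capitals. For each gene the longest transcript with a hexamer in its last 50 bases is printed, and for *Neat1* also the long isoform, which lacks one.
Neat1-202, chr19:5842307-5842346, minus strand: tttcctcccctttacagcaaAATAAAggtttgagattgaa
Neat1-201, chr19:5824708-5824747, minus strand: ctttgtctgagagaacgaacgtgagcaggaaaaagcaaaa
Malat1-201, chr19:5795690-5795729, minus strand: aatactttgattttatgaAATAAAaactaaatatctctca
Dleu2-202, chr14:61632349-61632388, minus strand: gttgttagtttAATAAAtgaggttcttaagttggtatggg
Gas5-218, chr1:161038500-161038539, plus strand: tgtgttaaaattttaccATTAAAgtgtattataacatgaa
Snhg1-215, chr19:8726403-8726442, plus strand: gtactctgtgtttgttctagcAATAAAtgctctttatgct
Snhg12-210, chr4:132310985-132311024, plus strand: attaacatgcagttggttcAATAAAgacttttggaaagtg
Kcnq1ot1-201, chr7:143203458-143203497, minus strand: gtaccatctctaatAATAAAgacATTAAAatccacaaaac
Meg3-209, chr12:109571687-109571726, plus strand: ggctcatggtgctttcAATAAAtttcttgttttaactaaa

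A hexamer stood in the last 50 bases of 51 of the 88 annotated transcripts of the 8 genes, and of 33.8% of all 141672 annotated transcripts. All 8 genes had at least 1 such transcript, as did 43.9% of the 55450 annotated genes. The end shown for *Kcnq1ot1* held both forms. In *Neat1* it was 1 of 4 transcripts, the short isoform of 3004 bases. The long isoform of 20771 bases, which is the one that builds paraspeckles, had no hexamer in that window. A count of *Neat1* reads therefore joins whatever came from both isoforms, and the counts do not tell them apart. Runs of at least 12 A inside the longest transcript, where oligo(dT) could also prime, were found in 5.6% of 55450 annotated genes. *Kcnq1ot1*, a single unspliced transcript of 93092 bases, held 8 such runs, the longest of 41 A. *Meg3* held 3, *Malat1*, *Dleu2* and *Snhg12* held 1 each, and *Neat1*, *Gas5* and *Snhg1* held 0. The longest run in the long isoform of *Neat1* was 7 A. How far the counts sample that isoform, the one that builds paraspeckles, is therefore not known.

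The snoRNA hosts are known for a 5′ terminal run of pyrimidines, the element that ties a transcript to growth signalling. The first 50 bases are shown for that reason, from RefSeq on GRCm38.p6, with the longest run of C and T within the first 20 bases in capitals.
Gas5, chr1:161035166-161035215, plus strand: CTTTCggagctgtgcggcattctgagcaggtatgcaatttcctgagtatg
Snhg1, chr19:8723487-8723536, plus strand: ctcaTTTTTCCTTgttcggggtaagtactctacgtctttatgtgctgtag
Snhg12, chr4:132308678-132308727, plus strand: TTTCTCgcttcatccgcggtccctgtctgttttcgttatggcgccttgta

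*Gas5* opened with 5 pyrimidines, a lead that 4.44% of the 32851 listed starts matched or exceeded, and *Snhg12* opened with 6, matched or exceeded by 2.93%. *Snhg1* had only 3 pyrimidines before its first A, a lead that 10.7% of starts matched or exceeded. It had 13 among its first 15 bases, as did *Snhg12*, which 1.83% of starts reached. *Gas5* had 9 among its first 15 bases, which 29.3% of starts reached. A second listed start of *Gas5*, which begins upstream of the one shown, opened with 0 pyrimidines. RefSeq listed 7 of the 8 RNAs in that table, all but *Neat1*.

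The miRNAs hosted by *Dleu2* are printed with their seed, bases 2 to 8, in capitals, because the seed sets which messages they bind.
mmu-miR-15a-5p, chr14:61632075-61632096, minus strand: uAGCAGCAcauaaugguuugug
mmu-miR-16-5p, chr14:61631936-61631957, minus strand: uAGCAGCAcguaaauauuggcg

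Both had the same seed, which 10 of the 1679 mature mouse miRNAs of RefSeq carried. Both lay in an intron of 8 of the 15 annotated *Dleu2* transcripts and in an exon of 0. The 3′ end shown for Dleu2-202 is reached before the miRNAs in the direction of transcription, so reads at that end are not reads of the miRNAs.

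The libraries held between 3525665 and 5605158 reads on genes, and levels are given as CPM, the reads of a gene scaled to a common library size by TMM factors. A count of 3 reads, the limit that a count of 0 allows, was worth 0.561 to 0.840 CPM, and such limits cover counting error only. *Hdgfl2* had 228, 156 and 168 reads in the WT mice and 13, 3, 8 and 2 in the KO mice, low in each mouse labelled KO. *Xist*, the noncoding RNA of the inactive X chromosome, had 3 reads in KO replicate 3 against 229.0 to 302.8 CPM in the other 6 mice, so that KO replicate 3 stood apart. The sample labels give no sex, and whether this mouse differed in sex from the other 6 was not tested. The ribosomal RNA locus *Rn45s* took 4.94% to 20.6% of gene reads. Lin- cells are what remains when cells with lineage antigens are removed, so markers of progenitors and of mature cells were both measured. The summed level of 8 progenitor markers was 1306 to 1522 CPM in WT and 1273 to 1453 CPM in KO mice, while 9 neutrophil markers summed to 7783 to 10862 CPM in WT and 8898 to 24380 CPM in KO mice. The highest of these sums was that of KO replicate 3, and the next was 15423 CPM. The 8 noncoding RNAs together took 0.284% to 0.495% of the gene reads of a mouse.

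Of the 8 RNAs, 7 passed the filter on low counts and *Meg3* did not. In the edgeR quasi-likelihood fit over the 11265 genes tested, 2 genes had a Benjamini-Hochberg adjusted p under 0.25, the study's threshold, which is 0.0178% of all, and both were also under 0.05. None of the 7 RNAs was among them. At an unadjusted p under 0.05 the count over all genes was 409. Because the RNAs were chosen on this contrast, the counts of calls are printed for the record and nothing is read from them. Log2 fold changes (KO over WT) were above 0 for 5 of the 7 and below 0 for 2, with a median of 0.13 beside -0.0014 over all genes. The plot of CPM by mouse shows the level of each RNA in every library.

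**Figure D1:**
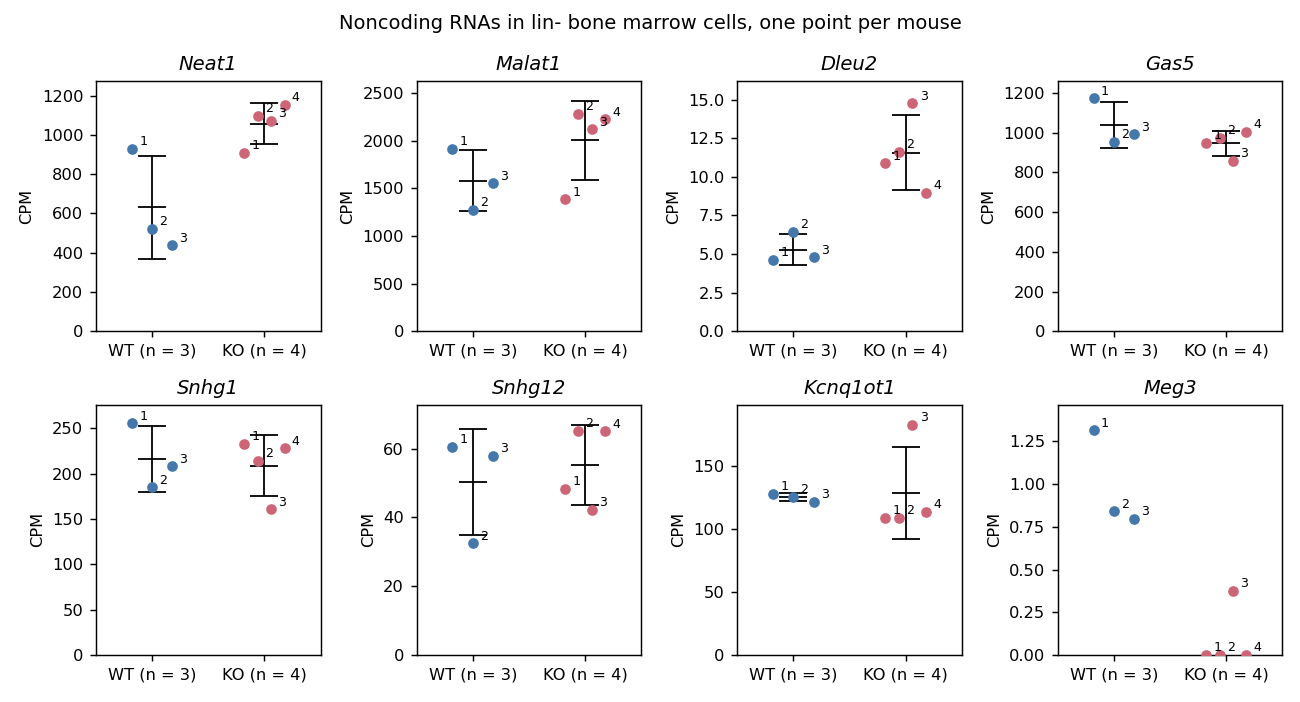
Level of each of the 8 noncoding RNAs in CPM (linear vertical axis from 0) for 3 WT and 4 KO mice. Each point is 1 mouse, marked with its replicate number, and bars give the mean ± SD, left out for *Meg3*, whose values lie near the counting limit. *Dleu2* was the RNA whose KO points all lay above its WT points, 8.97 to 14.8 against 4.61 to 6.44 CPM.

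*Neat1*, the scaffold of paraspeckles (ENSMUSG00000092274, chr19:5824708-5845478, minus strand, a lincRNA with 4 transcripts), stood at 931, 523 and 439 CPM in the WT mice. In the KO mice it stood at 910, 1097, 1071 and 1154 CPM. The 4 KO mice lay close together, and 3 of them lay above all WT mice, but WT replicate 1 lay above KO replicate 1, so the genotypes overlapped. The mean was 630.9 ± 263.2 CPM in WT (SD, n = 3) and 1058 ± 104.6 CPM in KO mice (SD, n = 4), a log2 fold change of 0.75 with a standard error of 0.22. The coefficient of variation was 41.7% among WT and 9.88% among KO mice, and it was the high value of WT replicate 1 that made the WT spread wide.

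That mouse set much of the size of the difference. The log2 fold change was 1.15 (SE 0.16) without WT replicate 1, 0.54 (SE 0.20) without WT replicate 3 and 0.74 without KO replicate 3, and it was above 0 in all 15 alternatives tried. *Neat1* was among the genes called with DESeq2 (0.194% of genes called), with edgeR without a filter on low counts (0.25%) and with edgeR without WT replicate 1 (0.0607%). In the other 12 alternatives it was not called. Since *Neat1* was chosen with this contrast in view, nothing is read from these calls.

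*Malat1*, the RNA of nuclear speckles (ENSMUSG00000092341, chr19:5795690-5802672, minus strand, a lincRNA on the same chromosome and strand as *Neat1*), stood at 1914, 1275 and 1554 CPM in WT mice. The KO mice gave 1387, 2284, 2122 and 2223 CPM. Again 3 KO mice lay above all WT mice, and here KO replicate 1 fell among the WT values, below 2 of them. Means were 1581 ± 320.5 CPM (SD, n = 3) and 2004 ± 416.7 CPM (SD, n = 4), and the log2 fold change was 0.34 with a standard error of 0.18. Leaving out 1 mouse at a time moved it between 0.21 and 0.51.

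*Dleu2*, the host of miR-15a and miR-16-1 (ENSMUSG00000097589, chr14:61602839-61682373, minus strand, 15 transcripts of up to 7 exons), was far less sampled, with 21, 23 and 18 reads in WT and 56, 56, 79 and 36 reads in KO mice. In CPM these were 4.61, 6.44 and 4.78 in WT and 10.9, 11.6, 14.8 and 8.97 in KO mice. Every KO mouse lay above every WT mouse. Among all genes tested, 2.37% had KO values wholly above the WT values, and among the 7 RNAs *Dleu2* was the only one. The mean was 5.28 ± 1.01 CPM in WT (SD, n = 3) and 11.6 ± 2.41 CPM in KO mice (SD, n = 4), 2.19 times as high, with a log2 fold change of 1.14 and a standard error of 0.34. The highest value came from KO replicate 3, and the log2 fold change was 1.00 without it and up to 1.30 over the other alternatives. *Dleu2* was called in 0 of the 15 alternatives.

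Counting *Dleu2* reads has a further limit, since the sources used here do not state which strand was counted. *Trim13*, a ubiquitin ligase gene, and *Kcnrg* overlap the *Dleu2* span on the opposite strand, and without strand their reads cannot be told apart from those of *Dleu2* where the exons meet. *Trim13* had 141 reads over the 7 mice, with a log2 fold change of -0.44 (SE 0.48), and *Kcnrg* had 18 reads. The rows of the hosted miRNAs held 6 reads for *Mir15a* and 7 for *Mir16-1* in all 7 libraries, so the level of neither miRNA was measured by this assay.

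The 3 snoRNA hosts showed another picture. *Gas5* (ENSMUSG00000053332, chr1:161034422-161038539, plus strand, 25 transcripts), named for its rise when growth stops, stood at 1174, 955 and 991 CPM in WT mice and at 950, 975, 860 and 1004 CPM in KO mice. The genotypes overlapped and WT replicate 1 was the highest. The mean was 1040 ± 117.3 CPM in WT (SD, n = 3) and 947 ± 62.1 CPM in KO mice (SD, n = 4), with a log2 fold change of -0.14 (SE 0.13) that ranged from -0.19 to -0.032 when single mice were left out.

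*Snhg1* (ENSMUSG00000108414, chr19:8723475-8726443, plus strand, 18 transcripts) stood at 256, 185 and 208 CPM in WT and at 233, 214, 161 and 228 CPM in KO mice. The values of the genotypes were interleaved. Means were 216 ± 36.1 CPM (SD, n = 3) and 209 ± 33.1 CPM (SD, n = 4), and the log2 fold change of -0.05 (SE 0.15) changed sign in 2 of the 15 alternatives, to 0.10 without WT replicate 1 and to 0.06 without KO replicate 3.

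*Snhg12* (ENSMUSG00000086290, chr4:132308623-132311024, plus strand, 10 transcripts) gave 60.5, 32.5 and 57.9 CPM in WT and 48.4, 65.3, 42.2 and 65.0 CPM in KO mice. WT replicate 2 was the lowest of all mice, and the other values overlapped. Means were 50.3 ± 15.5 CPM (SD, n = 3) and 55.2 ± 11.7 CPM (SD, n = 4), with a log2 fold change of 0.13 (SE 0.22) that turned to -0.10 without WT replicate 2.

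Several snoRNA rows lie inside the hosts. *Snord47*, within *Gas5*, had 135 reads and a log2 fold change of -0.44 (SE 0.59), and *Snord22*, within *Snhg1*, had 135 reads and a log2 fold change of 0.30 (SE 0.56). Both errors exceeded the estimates. The 4 snoRNA rows within *Snhg12*, *Snora16a*, *Snora44*, *Snora61* and *Snord99*, held 16 to 47 reads and stayed under the filter. On the opposite strand, *Zbtb37* overlaps *Gas5* and had 65 reads with a log2 fold change of 0.48 (SE 0.68).

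Of the imprinted RNAs, *Kcnq1ot1* (ENSMUSG00000101609, chr7:143203458-143296549, minus strand, antisense to *Kcnq1*) silences genes around it on the paternal chromosome. It stood at 128, 126 and 122 CPM in WT mice and at 109, 109, 183 and 114 CPM in KO mice. The WT mice were nearly equal, 3 KO mice lay below them and KO replicate 3, the mouse that stood apart in *Xist*, lay above all others. The means were 125 ± 3.25 CPM (SD, n = 3) and 129 ± 36.3 CPM (SD, n = 4), but the KO mean lay above 3 of its 4 values. The log2 fold change was 0.04 (SE 0.17) with all mice and -0.18 without KO replicate 3, and it was called in neither. *Kcnq1*, the potassium channel gene that *Kcnq1ot1* overlaps in antisense, had 0 reads in all 7 mice; whether reads were shared between them cannot be told.

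*Meg3* (ENSMUSG00000021268, chr12:109541001-109571726, plus strand, 11 transcripts) was at the counting limit. It had 6, 3 and 3 reads in the WT mice and 0, 0, 2 and 0 reads in the KO mice. Every WT count was above every KO count, but all KO counts and 2 of the WT counts were at or below 3 reads, so no fold is given and *Meg3* was not tested. Its neighbours in the Dlk1-Dio3 imprinted domain were no better covered: of 6 listed genes 0 passed the filter, and *Rtl1*, *Rian*, *Mirg* and *Dio3* had 0 reads.

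**Figure D2:**
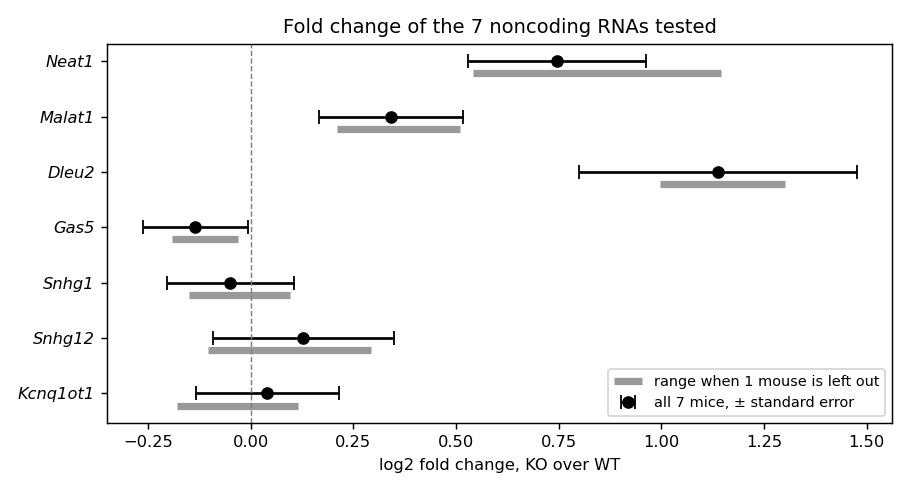
Log2 fold change, KO over WT, of the 7 noncoding RNAs that passed the filter on low counts (horizontal axis). Black points with bars give the edgeR estimate from all 7 mice ± its standard error, and grey bars give the range when 1 mouse is left out. *Neat1*, *Malat1* and *Dleu2* stayed above 0 and *Gas5* below 0, while *Snhg1*, *Snhg12* and *Kcnq1ot1* crossed 0.

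The RNAs differed in how much they varied among mice of 1 genotype, a measure in which the difference between genotypes has no part. The within-genotype SD of log2(CPM + 1) was 0.39 for *Snhg12*, 0.38 for *Neat1*, 0.32 for *Malat1*, 0.28 for *Kcnq1ot1*, 0.25 for *Dleu2*, 0.24 for *Snhg1* and 0.13 for *Gas5*. The median over the 1916 tested genes with a mean of at least 100 CPM was 0.18. Of the 5 RNAs above that level, *Neat1*, *Malat1*, *Snhg1* and *Kcnq1ot1* had an SD above that median and *Gas5* one below it. For *Kcnq1ot1* the SD came from KO replicate 3: without that mouse it was 0.037, below the median of 0.17 in the same 6 mice. For *Neat1* it was 0.16 without WT replicate 1, below the median of 0.19 in those mice. For *Snhg1* it was 0.173 without KO replicate 3, close to the median of 0.169. For *Malat1* it was 0.21 without KO replicate 1, above the median of 0.18 in those mice. In each case the mouse left out was the one whose removal lowered the SD of that RNA most. A fall was thus built into the choice, and the comparison with the median shows only which mouse the SD rested on. The SD of *Dleu2* and of *Snhg12* includes more counting error, since they had fewer reads.

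Each RNA was set beside the others across the 7 mice in 21 pairs, with exact two-sided permutation tests over the 5040 orders. No pair passed after adjustment, the smallest adjusted p being 0.315. *Neat1* and *Malat1* gave Pearson r = 0.75 (exact permutation p = 0.0522, adjusted p = 0.360) and Spearman rho = 0.86 (exact permutation p = 0.0238, adjusted p = 0.464). Without the 2 mice farthest from the median of *Neat1* r was 0.85, and after centring each genotype on its mean r was 0.65.

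*Gas5* and *Snhg1* gave r = 0.83 (exact permutation p = 0.0246, adjusted p = 0.315) and rho = 0.61 (exact permutation p = 0.167, adjusted p = 0.585). Without the 2 mice farthest from the median of *Gas5* r was 0.25, so the relation over all mice rested on them, while after centring each genotype on its mean r was 0.91 over all 7. *Dleu2* and *Gas5* ran in opposite directions, with r = -0.75 (exact permutation p = 0.0300, adjusted p = 0.315), rho = -0.75 (exact permutation p = 0.0663, adjusted p = 0.464) r = -0.60 without the 2 farthest mice and r = -0.78 after centring. The 3 pairs are named because they had the smallest p for r, seen after the fact.

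Library quality was set beside the 7 RNAs in 14 relations, with the share of gene reads on *Rn45s* and with the share of reads on no gene. The smallest exact permutation p over 7 mice was 0.110, for *Malat1* and reads on no gene (r = 0.68, rho = 0.46 with permutation p = 0.302), and all adjusted p for r were 0.958. For *Neat1* r was -0.096 with *Rn45s* and 0.54 with reads on no gene. For *Dleu2* the values were -0.14 and 0.22.

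In these bulk samples fewer cells of a type and less RNA per cell cannot be told apart, so marker lists are given beside the RNAs. Immediate-early genes, which switch on within minutes of a stimulus, were above 0 in log2 fold change for 10 of 10 (median 0.50), with summed levels of 2344 to 5626 CPM in WT and 4291 to 8139 CPM in KO mice. Neutrophil markers were above 0 for 9 of 9 (median 0.75). Macrophage markers were below 0 for 7 of 8 (median -0.56), with sums of 324 to 400 CPM in WT and 232 to 286 CPM in KO mice. None of these markers was called in edgeR. At an unadjusted p under 0.05 the counts were 0 of 10 immediate-early, 0 of 9 neutrophil and 5 of 8 macrophage markers. The count over all 11265 genes tested was 409. The genotypes did not overlap in 6 of the 8 macrophage markers, and in 0 of the immediate-early genes and neutrophil markers. Among all genes tested, 2.37% had every KO mouse above every WT mouse and 2.79% every KO mouse below.

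Of all the marker lists, only the macrophage sums did not overlap between genotypes. Progenitor markers were below 0 in log2 fold change for 6 of 8 and above 0 for 2 (median -0.175). T and NK markers summed to 404 to 455 CPM in WT and 348 to 453 CPM in KO mice. The sums were 70.0 to 201 and 92.1 to 328 CPM for the B lineage and 219 to 357 and 101 to 867 CPM for megakaryocytes. They were 30.9 to 97.2 and 22.7 to 110.4 CPM for erythroid cells, whose *Hbb-bs*, *Hbb-bt*, *Hba-a1* and *Hba-a2* were listed at 0. Over 56 relations of an RNA with a marker sum, added after seeing the data, 1 had an unadjusted p for r under 0.05 and 0 an adjusted one. That relation was *Neat1* with the immediate-early genes, at r = 0.87 (exact permutation p = 0.00198, adjusted p = 0.111) and rho = 0.86 (exact permutation p = 0.0238, adjusted p = 0.933) over 7 mice. Without the 2 mice farthest from the median of the sum r was 0.76, and within genotypes, after centring, it was 0.84. By rho alone, *Gas5* with the megakaryocyte sum also had an unadjusted p under 0.05 (rho = 0.82, exact permutation p = 0.0341, adjusted p = 0.933), with r = 0.47 (exact permutation p = 0.277, adjusted p = 0.927) and r = 0.93 without the 2 farthest mice. *Neat1* with the macrophage sum gave r = -0.75 (exact permutation p = 0.0558, adjusted p = 0.747) and rho = -0.61 (exact permutation p = 0.167, adjusted p = 0.933), with r = -0.85 without the 2 farthest mice and -0.21 after centring. *Dleu2* with the neutrophil sum gave r = 0.71 (exact permutation p = 0.0690, adjusted p = 0.747) and rho = 0.71 (exact permutation p = 0.0881, adjusted p = 0.933), with r = 0.20 without the 2 farthest mice and 0.49 after centring, and KO replicate 3 was the highest in both. The part of these genes or of the cell mixture in the levels of *Neat1*, *Dleu2* and the other RNAs was not tested.

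**Figure D3:**
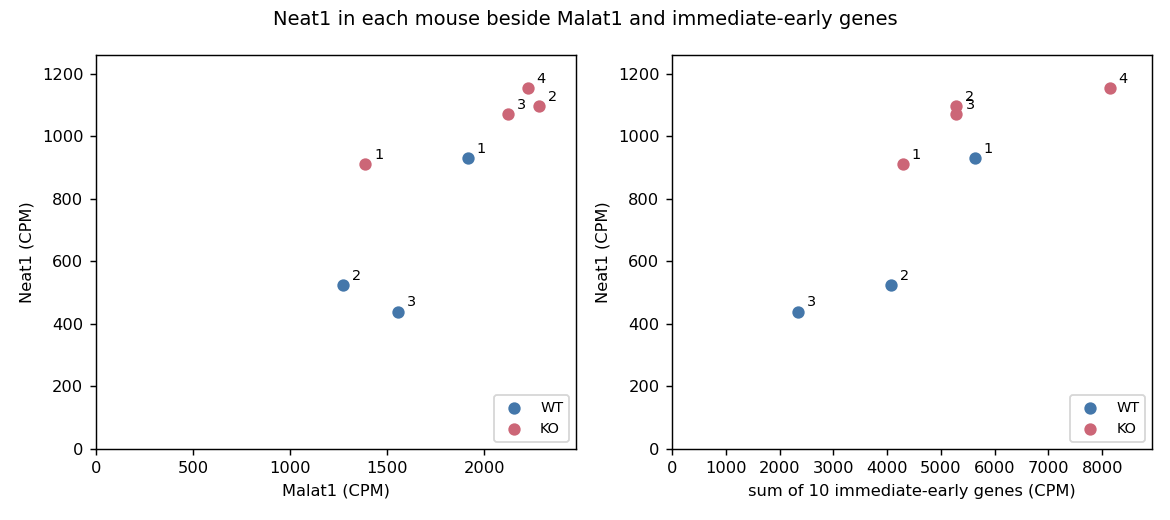
Level of *Neat1* (vertical axes, CPM) in each of 3 WT and 4 KO mice beside that of *Malat1* (left, CPM) and the summed level of 10 immediate-early genes (right, CPM), with replicate numbers at the points. WT replicate 1, at 931 CPM of *Neat1*, lay beside the KO mice in both panels, and WT replicates 2 and 3 lay lowest in *Neat1*.

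The genes whose log2 levels followed *Neat1* most closely over the 7 mice, among 8514 genes with a mean of at least 10 CPM, were *Nfix* (r = 0.98), *Trib1* (0.98), *Nr4a2* (0.98), *Rnu12* (0.97) and *Iba57* (0.97). They are given as a description without a test, since the best of so many genes over 7 mice will be high. *Nr4a2*, a nuclear receptor gene of the immediate-early class that is not in the list above, was at 44.4 ± 21.2 CPM in WT (SD, n = 3) and 87.0 ± 12.2 CPM in KO mice (SD, n = 4). *Trib1*, a pseudokinase gene of myeloid cells, was at 126 ± 26.5 CPM and 179 ± 20.3 CPM.

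For *Dleu2* the closest genes included *Metrn* (r = 0.95), *Man2a2* (0.95), *Nrd1* (0.94) and *Hpcal1* (0.94). *Man2a2*, an enzyme of N-glycan processing, was at 110.0 ± 8.67 CPM in WT (SD, n = 3) and 128 ± 6.00 CPM in KO mice (SD, n = 4). In proportion to the WT level this was a smaller difference than that of *Dleu2* itself, though a larger one in CPM.

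Next, the genes known to work with these RNAs were examined, in 9 lists of 137 genes, of which 99 were tested. None was called in edgeR with adjustment over all genes, in any list or direction, and 1, *Tspan32*, had an unadjusted p under 0.05. DESeq2 called 0 of them as well. The genes named in each list are the pair with the smallest p, and each had an adjusted p of 0.999 in edgeR. The medians of the paraspeckle proteins, the other snoRNA hosts, the assembly proteins, the miRNA targets and the other regulatory RNAs changed sign under at least 1 alternative, so no direction is read from them.

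Paraspeckle proteins, the partners of *Neat1*, were all measured, and 10 of 19 were above 0 and 9 below, with a median log2 fold change of 0.02. The smallest p in that list belonged to *Taf15*, an RNA-binding protein, at 0.29 (SE 0.15), with every KO mouse (78.7 to 101.2 CPM) above every WT mouse (70.7 to 75.7 CPM). It was the 1 gene of the 19 whose genotypes did not overlap in either direction. Over all genes tested, 2.37% had every KO mouse above and a further 2.79% every KO mouse below. Next by p was *Smarca4*, the ATPase of a chromatin remodeller, at 0.18 (SE 0.20).

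Among 14 tested hosts of snoRNAs other than the 3 above, 5 were above 0 and 9 below (median -0.05), over a range from -0.42 to 0.45. Those with the smallest p were *Snhg6* at -0.42 (SE 0.21) and *Snhg4* at -0.34 (SE 0.21). The proteins that assemble snoRNAs into particles were above 0 for 8 of 13 (median 0.06), with *Nop56* at 0.28 (SE 0.17) and *Snu13* at 0.31 (SE 0.21). The median of the hosts turned to 0.021 without KO replicate 3 and 0.0056 without WT replicate 1. That of the assembly proteins turned to -0.021 without KO replicate 3, -0.018 without WT replicate 3 and -0.010 with the replicate number as a block. Factors of nonsense-mediated decay, the pathway that removes spliced *Gas5* and its kin, were above 0 for 11 of 15 (median 0.10), with the exon junction proteins *Magoh* at 0.28 (SE 0.14) and *Rbm8a* at 0.15 (SE 0.12).

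In the *Dleu2* region, 3 of 9 tested genes were above 0 and 6 below (median -0.07), with *Ebpl* at -0.27 (SE 0.19) and *Arl11* at 0.27 (SE 0.20). The reported targets of miR-15 and miR-16 were above 0 for 3 of 10 and below for 7, with a median of -0.02. The cell cycle kinase *Cdk6* had a log2 fold change of -0.11 (SE 0.13) and *Ccnd2*, a D-type cyclin, one of -0.09 (SE 0.13). All 10 lay within a narrow range, from -0.16 to 0.05.

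In the *Kcnq1* imprinted domain, 6 of 12 genes were tested, 2 above 0 and 4 below (median -0.10). *Tspan32*, a tetraspanin gene of blood cells, stood at 86.7, 104.4 and 75.2 CPM in WT and at 49.7, 49.7, 59.2 and 84.2 CPM in KO mice, a log2 fold change of -0.55 (SE 0.19). Its highest KO value, that of replicate 4, overlapped the WT mice. *Dhcr7*, an enzyme of cholesterol synthesis, had 0.31 (SE 0.30).

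Of 28 other regulatory noncoding RNAs, 13 were tested, 8 above 0 and 5 below (median 0.05). *Mir22hg*, the host of miR-22, had a log2 fold change of 0.86 (SE 0.43) on 7 to 47 reads a mouse. *Tug1*, a widely expressed lincRNA, had 15.6 ± 2.49 CPM in KO (SD, n = 4) and 20.1 ± 1.02 CPM in WT mice (SD, n = 3), with every KO mouse below every WT mouse and a log2 fold change of -0.36 (SE 0.23). Among all genes tested, 2.79% had KO values wholly below the WT values.

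**Figure D4:**
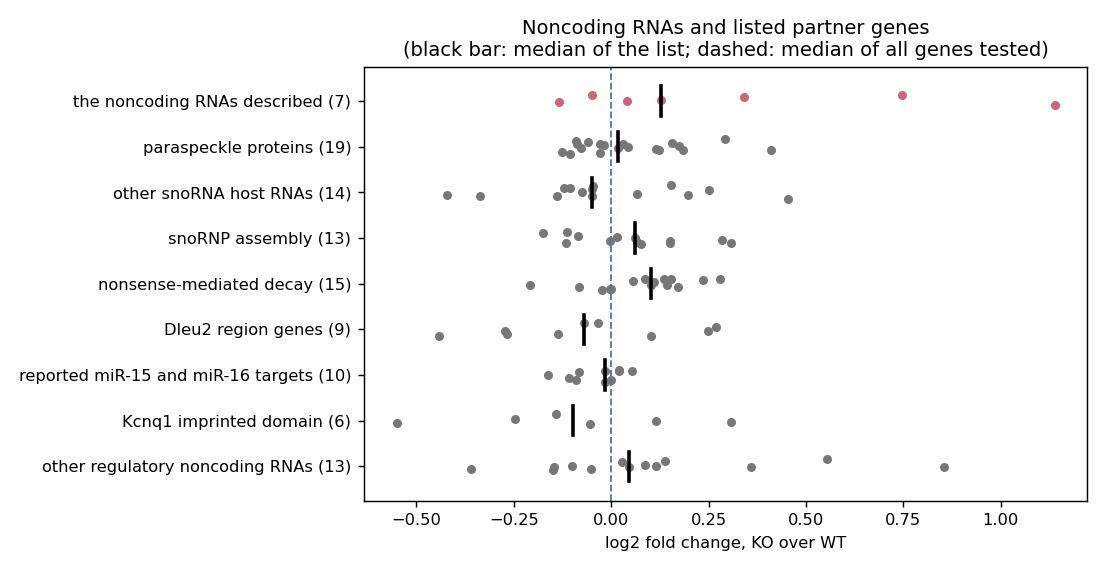
Log2 fold change, KO over WT (horizontal axis), of the 7 noncoding RNAs tested (red) and of the tested genes of 8 partner lists (grey), with the number of genes in brackets. Each point is 1 gene, black bars are list medians and the dashed line is the median of all genes tested. List medians lay between -0.10 and 0.13.

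The annotation placed 84 counted genes within 100 kb of the 8 RNAs, of which 38 were tested and 0 called in edgeR, with 21 above 0, 17 below and a median of 0.03. At an unadjusted p under 0.05 the count was 0. *Frmd8*, whose span lies 4224 bases from that of *Neat1*, had a log2 fold change of -0.03 (SE 0.16), and the median over the 9 tested neighbours of *Neat1* was -0.09. *Dpf2*, a subunit of a chromatin remodeller 51038 bases from *Neat1*, had -0.31 (SE 0.16), with every KO mouse below every WT mouse. It was the 1 gene of the 38 whose genotypes did not overlap in either direction. Over all genes tested, 2.79% had every KO mouse below and a further 2.37% every KO mouse above. *Slc3a2*, an amino acid transporter gene 106 bases from *Snhg1*, had 0.03 (SE 0.30). Beside *Snhg12*, *Trnau1ap* had -0.42 (SE 0.25) and *Rcc1* 0.24 (SE 0.13). The medians were -0.06 for *Malat1*, 0.08 for *Gas5*, 0.03 for *Snhg1* and 0.08 for *Snhg12*.

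Finally, the RNAs were placed among all annotated long noncoding RNAs that passed the filter. Apart from the 7, 248 were tested, 0 were called in edgeR, and 54.0% had a log2 fold change above 0, with a median of 0.03 and quartiles of -0.19 and 0.30. The 10797 protein-coding genes had 49.6% above 0 and quartiles of -0.16 and 0.14. A log2 fold change as high as that of *Neat1* was reached by 15 of the 248 and one as high as that of *Dleu2* by 5, and KO values wholly above WT values were found in 3.23% of the 248 and in 2.35% of the protein-coding genes. *Neat1* and *Dleu2* lay in the upper part of the range of noncoding RNAs in these libraries, with other RNAs beyond them. Since both were chosen with this contrast in view, their place is a description and nothing is read from it.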

How the data were processed

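RNA of lin- bone marrow cells of 3 WT and 4 KO mice was sequenced. The authors prepared libraries with a 3′ kit primed by oligo(dT), which yields 1 fragment per transcript, aligned reads to GRCm38 with STAR and quantified them on Ensembl annotation. The deposited values are raw counts of reads per gene symbol, not normalized. The strand counted is not given in the sources used here. The 5 tally rows were left out (no gene 27.0% to 31.6% of reads, ambiguous 1.99% to 2.40%).

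Counts were filtered with filterByExpr (minimum count 10), scaled by TMM and fitted with the robust quasi-likelihood test of edgeR 4.0.16 in R 4.3.3, Benjamini-Hochberg adjusted over all genes tested. The standard error was the log2 fold change divided by the square root of F. DESeq2 1.42.0, limma 3.58.1 (voom), other scalings and filters, a replicate block and single mice left out were alternatives. The biological coefficient of variation was 21.25%, and depth was 3525665 to 5605158 reads. Replicates exceeded counting noise, so each mouse counted as 1 sample. Same-numbered mice did not deviate together (r = -0.025, -0.215 and -0.160) and were not treated as pairs.

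The RNAs and gene lists were chosen with earlier results of these data known. Named genes were the 8 RNAs, the 2 partners or neighbours with the smallest p per list, the 5 genes most correlated with *Neat1* and with *Dleu2* in log2(CPM + 1), and the genes used to describe libraries. One gene that this rule names is not reported here. Overlapping or adjacent genes named beside an RNA were chosen by position. Gene positions and 3′ ends are from GENCODE M21 on GRCm38, and starts and miRNAs from RefSeq on GRCm38.p6. No genome sequence was used here.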

Additional observations from a re-analysis of the deposited data

Results flagged for a closer look

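Among 24 levels and marker sums checked within the 4 KO mice, 2 had 1 mouse far from the rest. Chance gives about 1 in 20 such gaps. *Kcnq1ot1* in KO replicate 3 was 182.9 CPM, where the other KO mice had 108.7 to 113.9 CPM, a gap of 0.93 of the whole range. The summed level of 5 megakaryocyte markers in KO replicate 4 was 866.8 CPM, where the other KO mice had 100.7 to 185.6 CPM, a gap of 0.889 of the range.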

How the results depend on the processing

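Over 15 alternatives the log2 fold changes of *Neat1*, *Malat1*, *Dleu2* and *Gas5* kept their sign. The number of genes called, 2, was 21 with DESeq2, 41 without a filter on low counts, 1 with at least 10 counts in every mouse, 1 with a replicate block, which changed no call among the 8 RNAs or their partners, and 2 to 7 with 1 mouse left out (7 without WT replicate 1, 4 without KO replicate 1). Neighbouring genes called were 0 to 1 with 1 mouse left out, the 1 being *Rnu11* near *Snhg12* without WT replicate 1, named after its value was seen. With 1 mouse left out, median log2 fold changes ranged from 0.075 to 0.18 for nonsense-mediated decay (0.18 without WT replicate 1), -0.081 to 0.021 for miR-15 and miR-16 targets (-0.081 without KO replicate 3), -0.31 to -0.0015 for the *Kcnq1* domain and -0.042 to 0.31 for other regulatory noncoding RNAs (0.31 without WT replicate 1). Without TMM factors 1 pair of RNAs, *Gas5* and *Snhg1*, passed at an adjusted p under 0.05, where 0 had passed. The causes were not tested. Depth limited *Dleu2* and *Meg3*, and 3 against 4 mice limit every difference.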
